A study of Mus musculus with 8 samples.

Results

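A set of 7 genes was followed in resting and proliferative growth plate chondrocytes. It holds 6 genes of red blood cells, which are the adult β-globin genes *Hbb-bs* and *Hbb-bt*, the adult α-globin genes *Hba-a1* and *Hba-a2*, *Alas2* and *Slc4a1*, and with them *Apex2*, whose exons overlap those of *Alas2* on the opposite strand. They were chosen by symbol from 43629 counted genes, and all 7 were found. The cells came from Axin2CreERT2;R26RTdTomato mice, in which tamoxifen turns Axin2-expressing cells and their descendants red. All mice, whichever zone was cut, carried the same alleles and received 3 daily tamoxifen injections from P23, and they were sacrificed at P30. TdTomato-positive resting chondrocytes and unlabeled, flattened proliferative chondrocytes lying at least 50 μm from the secondary ossification center were cut by laser microdissection from 8 μm frozen sections. Each of 4 mice (1 and 2 male, 6 and 13 female) gave 1 library per zone, so that n = 4 per zone and the zones can be compared within each animal. The Axin2 label marks a promoter's activity and not a cell type, and no sorting step against blood cells is described for these libraries.

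Hemoglobin carries oxygen as a tetramer of α and β chains, each holding a heme. Heme synthesis in red cell precursors begins with ALAS2, the erythroid 5-aminolevulinate synthase of the mitochondrion. *Slc4a1* encodes band 3, the anion exchanger that moves bicarbonate and chloride across the red cell membrane and anchors the membrane skeleton. APEX2 is an apurinic/apyrimidinic endonuclease with a role in DNA repair and is not known as an erythroid gene. Cartilage of the growth plate has no blood vessels of its own, whereas the adjoining ossification center and the metaphysis contain marrow in which red cells are made.

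The sequences of the globin pairs are shown first, because they bear on how far counts can be assigned within a pair. In the GENCODE M21 transcripts, the coding parts of *Hba-a1* and *Hba-a2* (429 bases) differ at 1 base, C381T, and those of *Hbb-bs* and *Hbb-bt* (444 bases) at 1 base, C417T, counted from the first base of the start codon, with the first gene's base given first. Both differences leave the amino acid unchanged. The stretch around each difference reads as follows, with the differing base in capitals.
Hba-a1: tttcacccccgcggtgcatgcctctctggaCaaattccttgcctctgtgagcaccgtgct
Hba-a2: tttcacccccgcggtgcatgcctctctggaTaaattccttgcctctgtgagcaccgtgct
Hbb-bs: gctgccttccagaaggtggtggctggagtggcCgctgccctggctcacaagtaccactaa
Hbb-bt: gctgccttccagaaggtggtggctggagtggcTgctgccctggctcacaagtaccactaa
Of all words of 57 bases, the shortest read length given in the labels, 33.9% in the *Hba-a1* transcript and 14.7% in the *Hba-a2* transcript were found in that gene and not in its partner. For *Hbb-bs* and *Hbb-bt* these shares were 34.6% and 42.2%. How reads that matched both genes of a pair were counted is not given in the sources used here, so the split within a pair is uncertain and the sum of the pair is the firmer value.

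The stretches before the start of *Hba-a2*, *Hbb-bs* and *Alas2* are shown because each of these genes had more counts in the resting zone of every mouse in the results that follow. They are RefSeq promoter sequences of GRCm38.p6, where *Slc4a1* and *Apex2* were not matched. Capitals mark 4 motifs searched on both strands. They are a GATA motif (TGATAA or AGATAA, each also with G as the last letter), the CACCC box, the CCAAT box and the letters TATAA. A match on the minus strand appears as its reverse complement, as in *Alas2*.
Hba-a2, plus strand, chr11:32296339-32296488: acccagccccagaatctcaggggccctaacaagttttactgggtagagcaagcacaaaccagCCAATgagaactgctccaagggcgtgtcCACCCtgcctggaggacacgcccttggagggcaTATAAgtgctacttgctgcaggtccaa
Hbb-bs, minus strand, chr7:103827929-103828011: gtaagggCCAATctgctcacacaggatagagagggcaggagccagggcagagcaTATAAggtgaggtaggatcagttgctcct
Alas2, plus strand, chrX:150547225-150547374: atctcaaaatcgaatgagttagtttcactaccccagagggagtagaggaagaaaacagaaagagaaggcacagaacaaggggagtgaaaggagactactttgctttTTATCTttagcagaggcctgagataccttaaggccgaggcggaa
The *Hbb-bs* stretch is shorter (83 bases) and lies within the GENCODE span of the gene, because that span reaches back to an upstream first exon of the transcript Hbb-bs-203, while the RefSeq start is that of Hbb-bs-201. The 247 upstream bases compared between *Hba-a1* and *Hba-a2* were identical, whereas *Hbb-bs* and *Hbb-bt* matched at 127 of 249. Within 250 bases before the start, a GATA motif was found at *Hbb-bs* (position -210), *Hba-a1* (-183), *Hba-a2* (-186) and *Alas2* (-86, minus strand) and not at *Hbb-bt*. Of 32851 promoters of this length, 26.5% held this GATA motif, 52% the CACCC box, 33.8% the CCAAT box and 22.8% the letters TATAA. These matches describe letters and not binding.

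All 7 genes had more CPM (counts scaled to library size with TMM factors) in the resting than in the proliferative library of every mouse. A difference of this direction in 4 of 4 mice was found for 24.6% of the 3793 genes that passed the filter on low counts. The mean CPM of the resting libraries was 12.2 (*Hbb-bt*) to 25.1 (*Slc4a1*) times that of the proliferative libraries, and mouse 1 alone held 64.9% (*Hba-a1*) to 100% (*Slc4a1*) of the proliferative zone counts. In the quasi-likelihood test without regard to the animal, *Hba-a1*, *Alas2* and *Slc4a1* passed (3 of 7, where 11.0% of all genes tested were called higher in the resting zone), and with the mouse as a replicate block all 7 passed (10.2% of all genes tested). In bulk samples such as these, fewer cells of a type and less RNA per cell cannot be told apart.

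Among the β-globin genes, *Hbb-bs* (ENSMUSG00000052305, GRCm38 chromosome 7, 103826534 to 103828096, minus strand) had 1694, 1710, 1079 and 161 counts in the resting libraries of mice 1, 2, 6 and 13, and 419, 116, 0 and 0 in their proliferative libraries. In CPM these were 5146, 5420.2, 2147 and 790.1 against 813, 199, 0 and 0, so that the resting library of mouse 13 lay below the proliferative library of mouse 1 and the zones overlapped. Resting libraries averaged 3376 ± 2274 CPM and proliferative libraries 253 ± 385 CPM (SD, n = 4), with a log2 fold change of 3.72 ± 1.25 (SE, adjusted p = 0.0381). With the block it was 5.32 ± 0.95 (adjusted p = 0.00183). *Hbb-bt* (ENSMUSG00000073940, chromosome 7, 103812524 to 103813996, minus strand) had 470, 358, 236 and 25 counts against 119, 16, 0 and 0. Its zones overlapped in the same pair of libraries, at 123 CPM in the resting library of mouse 13 and 231 CPM in the proliferative library of mouse 1. The log2 fold change was 3.56 ± 1.10 (adjusted p = 0.0269) without the block and 4.81 ± 0.74 (adjusted p = 0.000833) with it.

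Among the α-globin genes, *Hba-a1* (ENSMUSG00000069919, chromosome 11, 32283511 to 32284465, plus strand) had 255, 240, 196 and 45 counts in the resting libraries of mice 1, 2, 6 and 13 and 48, 26, 0 and 0 in the proliferative ones. Every resting library was above every proliferative library, with 221 CPM the lowest resting and 93.2 CPM the highest proliferative value. The log2 fold change was 3.87 ± 0.86 (adjusted p = 0.00439). *Hba-a2* (ENSMUSG00000069917, chromosome 11, 32296489 to 32297298, plus strand) had 1196, 893, 398 and 67 counts against 230, 34, 0 and 0. For this gene the resting library of mouse 13, at 329 CPM, was below the proliferative library of mouse 1, at 447 CPM. Its log2 fold change was 3.88 ± 1.22 (adjusted p = 0.0294), of nearly the same size as that of *Hba-a1* and with a larger error. With the block the values were 4.54 ± 0.67 for *Hba-a1* (adjusted p = 0.000644) and 5.31 ± 0.76 for *Hba-a2* (adjusted p = 0.000588). Because counts within a pair are uncertain, the sums were also tested: the α genes together gave 3.89 (adjusted p = 0.027) and the β genes together 3.70 (adjusted p = 0.0448), neither past the threshold of 0.01 without the block.

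**Figure D1:**
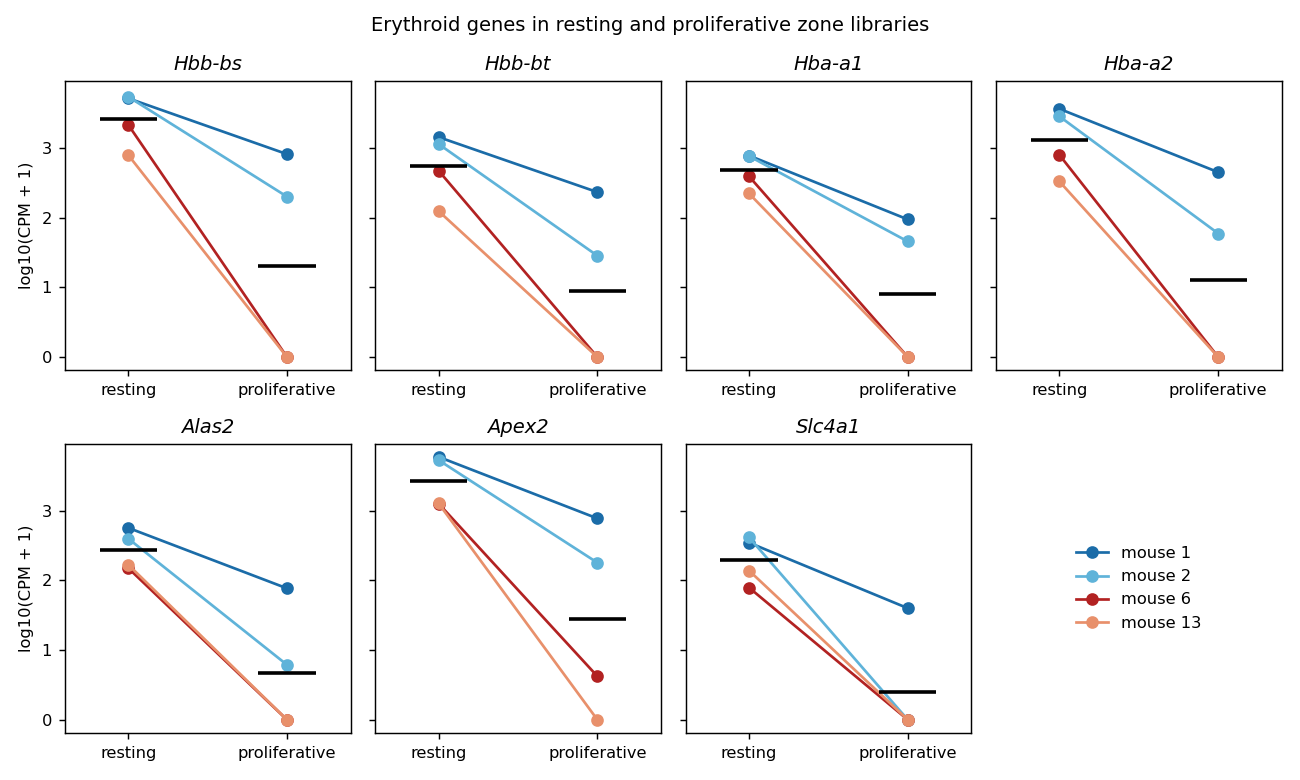
Level of each of the 7 genes as log10(CPM + 1) in the resting and proliferative library of each mouse, with a line joining the libraries of 1 animal and a black bar at the mean of the 4 log values of a zone. All lines fall from the resting to the proliferative zone, and mouse 1 has the highest proliferative value in every panel.

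*Alas2* (ENSMUSG00000025270, chromosome X, 150547375 to 150570638, plus strand) had 186, 125, 75 and 34 counts in the resting libraries and 39, 3, 0 and 0 in the proliferative libraries of mice 1, 2, 6 and 13. In CPM the resting values were 565, 396, 149 and 167, all above the highest proliferative value of 75.7. The log2 fold change was 3.89 ± 0.93 (adjusted p = 0.00727), and 4.83 ± 0.69 with the block (adjusted p = 0.000567). *Slc4a1* (ENSMUSG00000006574, chromosome 11, 102348824 to 102366203, minus strand) had 114, 130, 39 and 28 counts against 20, 0, 0 and 0, so that 100% of its proliferative zone counts lay in mouse 1. Its zones did not overlap, with 77.6 CPM the lowest resting and 38.8 CPM the highest proliferative value. It had the largest log2 fold change of the 7 without the block, 4.53 ± 0.98 (adjusted p = 0.00392), and 5.23 ± 0.81 with it (adjusted p = 0.000855).

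*Apex2* (ENSMUSG00000025269, chromosome X, 150519519 to 150589868, minus strand) had 1941, 1670, 633 and 258 counts in the resting libraries and 397, 104, 2 and 0 in the proliferative libraries. These counts followed the erythroid genes, high in mice 1 and 2 and low in mice 6 and 13 in both zones. Every resting library was above every proliferative one, at 1259 CPM and above against 771 CPM and below. The log2 fold change was 3.83 ± 1.20 (adjusted p = 0.0279), and 5.31 ± 0.78 with the block (adjusted p = 0.000637). Non-overlapping zones in the resting direction were found for *Hba-a1*, *Alas2*, *Apex2* and *Slc4a1*, 4 of the 7 genes, and for 17.8% of all genes that passed the filter. An exact permutation test of the mean CPM over the 8 libraries, two-sided, gave p = 0.0286 for these 4 genes, the smallest value that 4 against 4 libraries can give, and p = 0.0571 for *Hbb-bs*, *Hbb-bt* and *Hba-a2*. This test treats the libraries as unpaired, and for the 4 genes its p follows from the zones not overlapping. An exact permutation of the zones within each mouse gave p = 0.125 for all 7 genes, the smallest value that 4 mice can give.

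**Figure D2:**
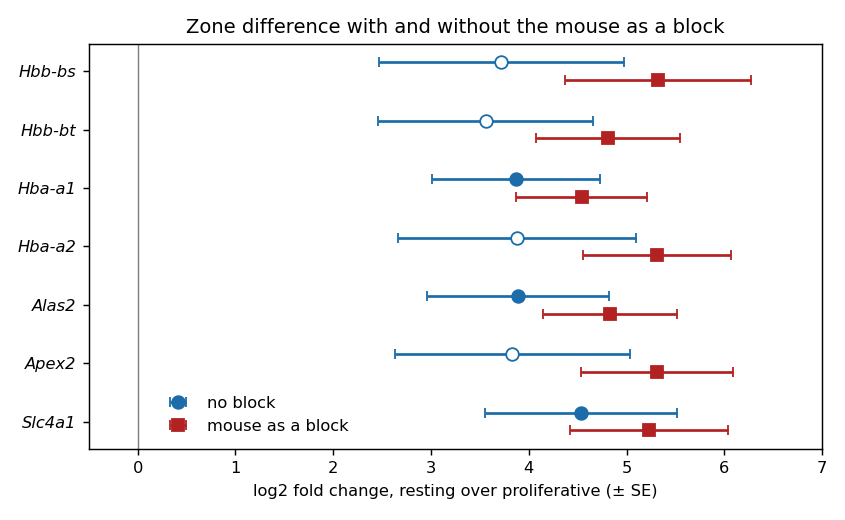
Log2 fold change of the resting over the proliferative zone with its standard error for each gene, fitted without (circles) and with (squares) the mouse as a block. Filled symbols have an adjusted p below 0.01, which is the case for 3 genes without the block and for all 7 with it.

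The size of the difference varied between animals. In mouse 1 the resting over proliferative ratio lay between 6.18 (95% exact interval 5.04 to 7.62) for *Hbb-bt* and 8.92 (5.51 to 15.1) for *Slc4a1*. In mouse 2, it was 17.1 (11.4 to 26.7) for *Hba-a1*, 27.3 (22.6 to 33.2) for *Hbb-bs*, 29.7 (24.4 to 36.6) for *Apex2*, 41.4 (25.2 to 73.3) for *Hbb-bt* and 48.6 (34.5 to 70.7) for *Hba-a2*. The intervals of all of these lie above that of the same gene in mouse 1, except for *Hba-a1*, where 11.4 and the upper bound of 11.6 in mouse 1 overlap slightly. For *Alas2*, with 3 proliferative counts in mouse 2, the ratio was 77.1 (25.8 to 379). *Slc4a1*, with 0 there, was at least 80.2-fold higher against a limit of 3 counts. In mouse 6, against a limit of 3 counts in the proliferative library, *Hbb-bs* was at least 447-fold, *Hba-a2* at least 165-fold, *Hba-a1* at least 81.1-fold and *Hbb-bt* at least 97.7-fold higher in the resting library. *Alas2* was at least 31-fold and *Slc4a1* at least 16.1-fold higher, and *Apex2*, with 2 proliferative counts, had a ratio of 393 (108 to 3250). In mouse 13, whose libraries were the shallowest, the same limit gave from at least 9.86-fold for *Hbb-bt* to at least 102-fold for *Apex2*, with at least 63.5-fold for *Hbb-bs*. The limits take the resting count as exact. The lower ends of the exact 95% intervals in mouse 6 were 363 for *Hbb-bs*, 133 for *Hba-a2*, 65.4 for *Hba-a1* and 78.8 for *Hbb-bt*. Such intervals and limits reflect the error of counting alone, because the RNA was amplified and copies of a molecule were not marked.

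Adding a term for sex asks whether the zone difference was larger in mice 6 and 13 than in mice 1 and 2. The difference in log2 fold change, female minus male, was 8.87 for *Hbb-bs*, 5.38 for *Apex2* and 4.13 for *Slc4a1*. Over all genes the adjusted p of the 7 genes lay between 0.302 and 0.836, and none passed, although the unadjusted p was below 0.05 for 6 of them. In fits of 2 animals each, the log2 fold changes ranged from 3.11 to 4.11 in mice 1 and 2, where 1 of 7 genes was called (0.653% of all genes tested), and from 8.36 to 12.2 in mice 6 and 13, where all 7 were called (5.45%). The fitted values of mice 6 and 13 rest on proliferative libraries at or near 0 and are no bounds.

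The calls without the block depended on single libraries. Without the proliferative library of mouse 1, all 7 genes were called, with log2 fold changes from 4.86 to 9.56 and adjusted p from 9.34e-05 to 0.00547 (11.7% of all genes tested were called higher in the resting zone there). Without the resting library of mouse 1, or the proliferative library of mouse 2 or of mouse 13, 0 of 7 were called by edgeR's quasi-likelihood test, with the lowest adjusted p at 0.0117, 0.0155 and 0.0155, and every log2 fold change stayed at 3.05 or above. These 3 fits called 7.23%, 6.65% and 6.07% of all genes tested. The proliferative library of mouse 6 left out kept 1 of 7 called, the resting library of mouse 2 or of mouse 13 left out kept 2 of 7, and the resting library of mouse 6 left out kept 3 of 7. The shares of all genes called were 7.59%, 8.67%, 8.70% and 13.0% in these 4 fits. DESeq2 called 0 of 7 without the block, with adjusted p from 0.0301 to 0.141 and log2 fold changes from 3.59 to 4.63, while it called 13.1% of the genes to which it gave an adjusted p.

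The 4 adult globin genes together took 1.09% of all counts in the resting library of mouse 1 (95% Wilson interval 1.05 to 1.12), 1.06% in mouse 2 (1.03 to 1.10), 0.413% in mouse 6 (0.395 to 0.432) and 0.154% in mouse 13 (0.138 to 0.173). Mice 1 and 2 had overlapping intervals, and both lay above mice 6 and 13. In the proliferative zone the share was 0.149% in mouse 1 (0.139 to 0.160) and 0.0307% in mouse 2 (0.0267 to 0.0354). Mice 6 and 13 had 0 of 631474 and 0 of 249284 counts, which allow shares of up to 0.000475% and 0.0012%. The resting library of mouse 13 and the proliferative library of mouse 1 thus had globin shares that could not be told apart by counting error.

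**Figure D3:**
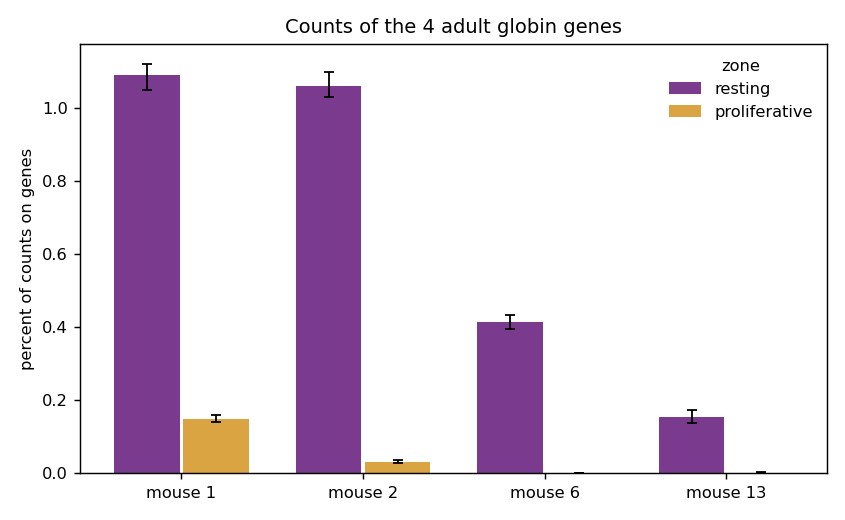
Share of all counts on genes that fell on *Hbb-bs*, *Hbb-bt*, *Hba-a1* and *Hba-a2*, in percent, per mouse and zone, with 95% Wilson intervals for counting error. The share falls from 1.09% to 0.149% in mouse 1 and is 0 in the proliferative libraries of mice 6 and 13.

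Levels of different genes were set side by side per kilobase of exon, with the exons of all transcripts of a gene merged. How the amplification of the RNA acted on these levels was not tested, and the order within a globin pair is as uncertain as its counts. *Hbb-bs* was the highest in the resting zone at 4395 ± 2961 CPM per kb, followed by *Hba-a2* at 2843 ± 2381, *Hbb-bt* at 1122 ± 851, *Hba-a1* at 661 ± 339.6, *Apex2* at 392 ± 287, *Alas2* at 133 ± 82.7 and *Slc4a1* at 49.8 ± 32.9 CPM per kb (SD, n = 4). Neighbours in this order differed by less than the larger of their SDs, except *Alas2* and *Slc4a1*, whose difference was about 1 SD of *Alas2*. In mouse 13 the order differed, with *Hba-a1* at 272 and *Hbb-bt* at 175 CPM per kb. The β over α count ratio lay between 1.49 and 2.21 in the resting libraries, and was 1.94 and 2.2 in the proliferative libraries of mice 1 and 2. *Hbb-bs* had 3.6, 4.78, 4.57 and 6.44 counts per count of *Hbb-bt* in the resting libraries of mice 1, 2, 6 and 13, and 3.52 and 7.25 in the proliferative libraries of mice 1 and 2. *Hba-a2* had 4.69, 3.72, 2.03 and 1.49 counts per count of *Hba-a1* in the same libraries, and 4.79 and 1.31 in the proliferative libraries of mice 1 and 2.

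Counts of *Slc4a1* and *Alas2* relative to globin varied between libraries. For every 100 globin counts, *Slc4a1* had 3.15, 4.06, 2.04 and 9.4 counts in the resting libraries of mice 1, 2, 6 and 13, and *Alas2* had 5.15, 3.91, 3.93 and 11.4. Mouse 13, with the fewest globin counts, had the most of both per globin count. In the proliferative library of mouse 1 the values were 2.45 for *Slc4a1* and 4.78 for *Alas2*, within the range of the resting libraries of mice 1, 2 and 6. The proliferative library of mouse 2, with 192 globin counts, had 0 for *Slc4a1* and 1.56 for *Alas2*, below every resting library.

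The overlap of *Alas2* and *Apex2* limits what can be read from either gene. Their exons share 311 bases, which is the whole last exon of *Alas2*, 12.9% of its exon length and 3.56% of that of *Apex2*. Of 10 annotated *Apex2* transcripts, only Apex2-203 reaches over *Alas2* exons. Over the 8 libraries *Apex2* had 5005 counts and *Alas2* 462. In the resting libraries there were 10.4, 13.4, 8.44 and 7.59 *Apex2* counts for each *Alas2* count in mice 1, 2, 6 and 13, and 10.2 in the proliferative library of mouse 1. The ratio was thus of similar size in both zones of mouse 1. In the proliferative library of mouse 2, with 104 *Apex2* and 3 *Alas2* counts, it was 34.7 (95% exact interval 11.5 to 171), an interval that overlaps that of the resting library of this mouse (11.1 to 16.2). Which strand setting was used for counting is not given in the sources used here, so reads from one of these genes cannot be told apart from reads of the other in the shared exon, and whether *Apex2* counts came from *Alas2* transcripts was not tested. The other partners on the opposite strand, *Pfkfb1* over *Apex2* and *Mir3620* over *Alas2*, had 4 and 0 counts. Both genes summed gave a log2 fold change of 3.84 (adjusted p = 0.029) without the block.

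**Figure D4:**
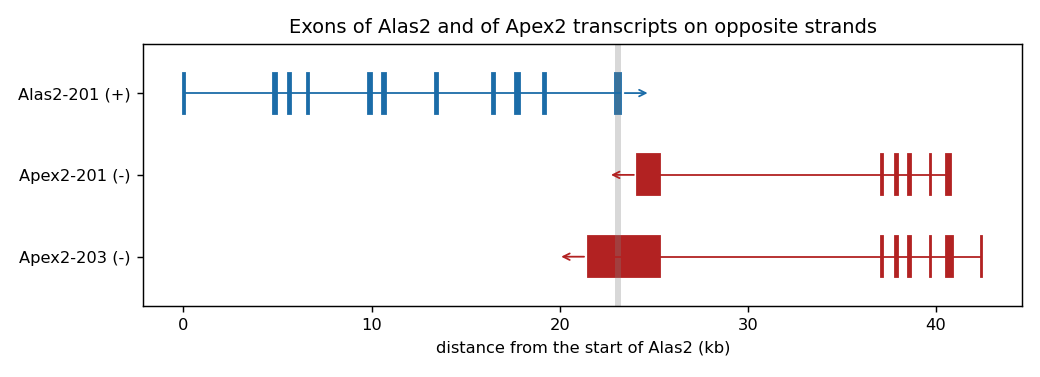
Exons (boxes) of *Alas2* and of *Apex2* transcripts against the distance from the start of *Alas2* in kb, with arrows for the direction of transcription and a grey band over the last exon of *Alas2*. The band lies inside the last exon of Apex2-203 and outside every exon of Apex2-201.

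The genes most similar to the summed globins across the 8 libraries, by Pearson's r of log2(CPM + 1) among 3786 other genes that passed the filter, were *BE692007* (r = 0.993), *Nme7* (0.986), *Unc5a* (0.985), *G530012D18Rik* (0.983) and *Mmp8* (0.979). *Mmp8* encodes neutrophil collagenase. *Nme7* belongs to the nucleoside diphosphate kinase family, and *Unc5a* is a netrin receptor. Overlaps on the opposite strand were not looked up for *BE692007*, *Nme7*, *Unc5a* and *G530012D18Rik*, so their counts may include reads of other genes. *BE692007* had 308, 382, 190 and 97 counts in the resting and 150, 28, 0 and 0 counts in the proliferative libraries of mice 1, 2, 6 and 13. Against the same sum, *Apex2*, which is no part of it, had r = 0.989, *Alas2* 0.959 and *Slc4a1* 0.872. The points share libraries and zones, and these values are a description.

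The other genes of the pathway were read from lists. Calls per list were taken from a fit that kept each of the 17492 genes with a count, where 4.74% were called higher in the resting zone and the median log2 fold change was 0.16. In that fit all 7 genes described above were called, with SEs far below those of the filtered fit (0.31 against 1.25 for *Hbb-bs*) and the calls of the filtered fit are given beside it. The low count filter can keep a gene for its resting counts alone. A share called among the genes that passed it is thus no independent support. DESeq2 over all genes with a count called 0 of the 7, with adjusted p from 0.0521 to 0.202, and 7.62% of the genes to which it gave an adjusted p. The likelihood ratio test of edgeR called 6 of the 7, and 815 of the 17492 genes. Values of single genes come from the filtered fit where the gene passed the filter. Of the other globins, the embryonic *Hba-x*, *Hbb-bh1*, *Hbb-bh2* and *Hbb-y* and also *Hbq1a*, *Mb* and *Ngb* had no count in any library. *Cygb* (cytoglobin), with 2, 3, 7 and 1 resting counts and 0, 0, 1 and 0 proliferative counts, and *Hbq1b* did not pass the test. The α-globin chaperone *Ahsp* was not matched.

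Of 8 further enzymes of heme synthesis, 1 was called (1 of the 4 that passed the filter), with its higher level in the resting zone, and the median log2 fold change was 1.29. The gene called was *Urod*, uroporphyrinogen decarboxylase, at 61 ± 35.3 CPM against 4.95 ± 2.44 CPM (log2 fold change 3.46 ± 0.59, adjusted p = 0.000933). *Fech*, the enzyme that inserts iron, had a log2 fold change of 1.70 (adjusted p = 0.0143), and *Ppox*, which overlaps *B4galt3* on the opposite strand, -0.67 (adjusted p = 0.0507). Summed over the 8 enzymes, the level was 384 to 662 CPM in the resting and 392 to 543 CPM in the proliferative libraries, so that the zones overlapped. Without *Ppox*, a sum chosen after the values were seen, the 7 other enzymes had 151 to 410.1 CPM in resting and 70.5 to 108 CPM in proliferative libraries, with no overlap. Of 14 transporters and iron-sulfur genes with a count, 1 was called (1 of the 5 that passed the filter), *Slc25a37*, the mitochondrial iron importer mitoferrin, with 217, 177, 64 and 25 counts against 42, 15, 7 and 0 (log2 fold change 3.54 ± 0.79, adjusted p = 0.0046). The heme exporter gene *Flvcr1* (2.02, adjusted p = 0.14) and *Flvcr2* (-1.28, adjusted p = 0.0929) did not pass.

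Of 10 genes of iron uptake and storage, 3 were called higher in the resting zone (3 of the 4 that passed the filter), with a median of 1.09. The iron exporter ferroportin, *Slc40a1*, had 85.4 ± 31.4 CPM against 6.94 ± 7.17 CPM (log2 fold change 3.85 ± 0.68, adjusted p = 0.00122). Ferritin heavy chain, *Fth1* (1.85 ± 0.29, adjusted p = 0.000583), and the transferrin receptor *Tfrc* (1.50 ± 0.25, adjusted p = 0.000925) also rose, and their resting libraries were closer together than those of the globins, at 244 ± 25.2 and 415 ± 57.6 CPM. Of 4 heme breakdown genes 2 were called (1 of the 2 that passed the filter). *Hmox1* (heme oxygenase 1) rose with 31, 26, 22 and 11 counts against 7, 3, 0 and 0 (3.68 ± 0.72, adjusted p = 0.00223), and *Blvrb* (biliverdin reductase B) was called in the fit over all genes (2.96, adjusted p = 0.0073).

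Of 12 erythroid transcription factors, 6 were called, all with the resting zone higher, and the median log2 fold change was 3.53, while 4 passed the low count filter, all of which were called there. *Lmo2* and *Myb* passed the filter through their resting counts, so these calls add no independent support. *Lmo2* had 31, 46, 36 and 14 counts against 1, 1, 0 and 0 (6.18 ± 0.65, adjusted p = 9.69e-05), *Tal1* had 22, 51, 12 and 12 against 5, 5, 0 and 0 (3.87 ± 0.82, adjusted p = 0.00354), and *Myb*, which overlaps *Gm26577*, had 15, 20, 14 and 5 against 0, 1, 0 and 0 (5.66 ± 0.77, adjusted p = 0.000321). *Lmo2*, *Tal1* and *Myb* also act in other blood and endothelial cells. *Gata1*, the master factor of red cell and platelet precursors, had 15, 28, 1 and 4 counts against 4, 0, 0 and 0, called in the fit over all genes (3.80, adjusted p = 0.0002). *Klf1*, the activator of adult β-globin, had 5, 14, 2 and 0 counts against 1, 1, 0 and 0 and did not pass (adjusted p = 0.0317). The erythropoietin receptor *Epor* had 6, 2, 0 and 0 counts against 0 in each proliferative library (adjusted p = 0.079). As for globins, mice 1 and 2 held most counts of these 3 genes.

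Of 21 red cell membrane and skeleton genes, 11 were called for the resting zone and 1 for the proliferative zone (median 2.92), and of the 6 that passed the filter 3 and 1 were called. *Ermap*, an erythroblast membrane protein, had 12, 38, 20 and 6 counts against 6, 0, 0 and 0 (log2 fold change 4.08 ± 0.91, adjusted p = 0.00454). β-spectrin, *Sptb*, which overlaps *Plekhg3*, was called in the fit over all genes (3.89, adjusted p = 1.54e-05). The gene higher in the proliferative zone was *Slc2a1*, the glucose transporter GLUT1, which is not limited to red cells and overlaps *Gm12868*, at 102 ± 40.6 CPM against 12.3 ± 8.84 CPM (-3.03 ± 0.51, adjusted p = 0.000942).

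Of 20 red cell enzyme and late erythroid genes, 10 were called for the resting zone (median 2.74), and of the 11 that passed the filter 6 were called. Carbonic anhydrase 2, *Car2*, had 50, 91, 102 and 18 counts against 4, 6, 0 and 0 (5.12 ± 0.67, adjusted p = 0.000278), and is also an osteoclast enzyme. Carbonic anhydrase 1, *Car1*, had 8, 29, 14 and 9 counts against 0 in all 4 proliferative libraries, which is at least 6.67-fold higher against a limit of 3 counts per library. The antioxidant genes *Gpx1* (3.17 ± 0.49, adjusted p = 0.00054) and *Prdx2* (3.04 ± 0.44, adjusted p = 0.000418, overlapping *Junb* and *Rnaseh2a*) and the poly(A) polymerase gene *Tent5c* (4.35 ± 0.83, adjusted p = 0.00192) rose. *Hemgn* (hemogen) had 101, 111, 17 and 16 counts against 31, 17, 0 and 0 and did not pass (3.01 ± 0.95, adjusted p = 0.0294).

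For *Apex2* the other base excision repair genes form the comparison. Of 18 with a count, 2 were called for the resting zone and 1 for the proliferative zone, with a median of 0.21 beside 0.16 over all genes, and of the 5 that passed the filter 1 was called in each direction. With the mouse as a block, 1 of the 18 was called for each zone, and the median was -0.0599. *Lig3*, which overlaps *Rffl*, rose (2.78 ± 0.42, adjusted p = 0.000466), *Lig1*, overlapping *Zswim9*, was called in the fit over all genes (2.18, adjusted p = 0.00448), and *Tdg*, overlapping *Glt8d2*, was higher in the proliferative zone (-1.36 ± 0.27, adjusted p = 0.00268). The log2 fold change of *Apex2*, 3.83 ± 1.20, was above those of all 3, but within its SE of that of *Lig3*. *Apex2* was not called in the filtered fit without the block (adjusted p = 0.0279).

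Markers of other cells were read in the same way, and the counts that follow are of markers called higher in the resting zone unless stated. In the fit over all genes, 11 of 15 neutrophil markers were called (median 4.15), against 7 of the 9 that passed the filter, and all 15 had no count in the proliferative libraries of mice 6 and 13. Of all 17492 genes with a count, 11392 and 9510 had one in these 2 libraries. The summed level of the neutrophil markers was 3303 to 4336 CPM in the resting and 0 to 608 CPM in the proliferative libraries. For macrophages, 7 of 11 were called, and 2 of 4 in the filtered fit (1001 to 1322 against 199 to 524 CPM). For osteoclasts it was 8 of 10 and 4 of 5 (1594 to 4789.6 against 78.8 to 485 CPM), and for osteoblasts and osteocytes 7 of 12 and 3 of 7 (10447 to 37762 against 684 to 4192 CPM). For B lymphoid cells it was 3 of 9 and 2 of 2 (137 to 328 against 3.2 to 34.9 CPM), with *Pax5* and *Vpreb2* at 0 in every library. For megakaryocytes and platelets it was 3 of 12 and 1 of 1 (54 to 231 against 8.29 to 54.4 CPM), and for endothelium 4 of 10 and 0 of 2 (334 to 453 against 169.8 to 239 CPM). Of the 12 chondrocyte markers, such as *Hapln1* and *Sox9*, all were called higher in the proliferative zone in the fit over all genes and 7 of 12 in the filtered fit, where 2.68% and 6.93% of all genes tested were called in this direction (7411 to 19369.8 CPM in resting against 34481 to 59248 CPM in proliferative libraries). The part of these cells in the results for the erythroid genes was not tested. The highest resting library exceeded the lowest by 5.87 times for the summed 7 genes, 4.28 times for the megakaryocyte and platelet markers, 3.61 times for the osteoblast and osteocyte markers, 3 times for the osteoclast markers, 2.48 times for the erythroid transcription factors and 1.31 times for the neutrophil markers.

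**Figure D5:**
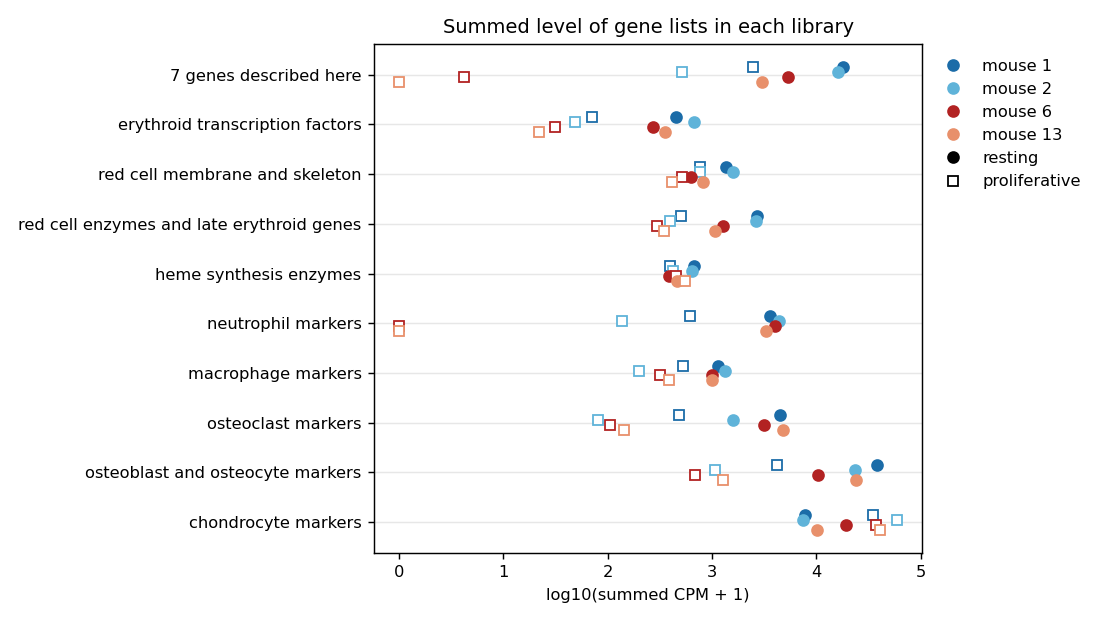
Summed level of each gene list as log10(summed CPM + 1), per library, with filled circles for the resting and open squares for the proliferative zone and a color per mouse. The 7 genes span 3033 to 17789 CPM over the resting libraries, whereas neutrophil markers lie within 3303 to 4336 CPM there.

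The total of counts on genes was 192882 to 462044 in the resting and 249284 to 631474 in the proliferative libraries, so that 3 counts correspond to 4.81 to 14.7 CPM. With a library left out in turn, the genes called higher in the resting zone in the fit over all genes numbered 4 to 6 of 12 transcription factors, 6 to 12 of 21 membrane genes and 10 to 11 of 20 late erythroid genes. Without the resting library of mouse 1 or of mouse 2, or the proliferative library of mouse 2, 6 or 13, the called genes numbered 6 in place of 11 for the membrane list, 1 in place of 2 for heme breakdown and 1 in place of 2 for base excision repair. For heme synthesis, 3 in place of 1 were called without the resting library of mouse 6 and 2 without that of mouse 13. For macrophages, 4 in place of 7 were called without the resting library of mouse 2. For megakaryocytes and platelets, 1 in place of 3 was called without the resting library of mouse 6 or the proliferative library of mouse 2 or 6, and 1 with the block. With the block the lists of transcription factors, membrane genes and late erythroid genes had 6, 10 and 10 called genes, with DESeq2 5, 8 and 9, in mice 1 and 2 alone 4, 8 and 11, and in mice 6 and 13 alone 2, 2 and 5 (the last of 18 with a count). DESeq2 gave no adjusted p to 2, 2 and 3 genes of these lists. Of the markers with an adjusted p, it called 6 of 14 for neutrophils, 4 of 9 for macrophages, 4 of 11 for osteoblasts and osteocytes, 6 of 9 for osteoclasts and 1 of 4 for megakaryocytes and platelets. Of the iron transport genes, 1 of which edgeR called, the lowest adjusted p by DESeq2 was 0.012. The shares of all genes called in these fits were 3.77% with the block, 3.06% in mice 1 and 2 and 2.27% in mice 6 and 13. They were 4.02%, 4.32%, 4.60% and 4.78% without the resting library of mice 1, 2, 6 and 13, and 4.65%, 3.33%, 3.21% and 3.72% without their proliferative libraries.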

How the data were processed

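Resting and proliferative chondrocytes of 4 mice were measured by RNA sequencing in 8 libraries, after 2 rounds of RNA amplification. The authors aligned reads to GRCm38 with HISAT2 2.1.0 and deposited whole-number counts per gene made with HTSeq 0.11.2, without normalization. A deposited table of the authors' comparison also holds a signal per library (scaled CPM), which was compared with the CPM computed here (largest difference for the 7 genes 16.7%), and fold changes and p-values, which were not used.

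Counts were tested with edgeR 4.0.16 in R 4.3.3 (quasi-likelihood, TMM factors 0.934 to 1.09, minimum count 10 and total 15 by zone, 3793 genes, zone as the only term). Called genes had a Benjamini-Hochberg adjusted p below 0.01 and a log2 fold change beyond 1, over all genes tested. Single values were compared by exact permutation in scipy, and ratios by exact conditional intervals. Per-kilobase levels used GENCODE M21 exon lengths.

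Libraries of the same number came from the same mouse per the labels. After removal of zone means, they correlated across genes at 0.195, 0.0104, 0.144 and 0.0635 in mice 1, 2, 6 and 13. The fit without the block is the main one, as the study's methods name none. It leaves out the pairing of the zones within a mouse. So do the fits with a library left out, DESeq2 and the fits of summed genes.

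The genes and lists were chosen with earlier results of these data known. From each list the up to 4 genes of lowest p were named, with *Klf1*, *Gata1*, *Epor*, *Car1*, *Ahsp*, *Hemgn* and *Tfrc* whatever their values, and the 5 genes most similar to the globins. Some genes that this rule names are not reported here. Of 71 such list genes, 13 overlap a gene on the opposite strand. Alternatives were the likelihood ratio test, DESeq2 1.42.0, other scaling factors and filters, sums of overlapping or near-identical genes, the replicate block and each library left out. Fits by sex, the heme enzyme sum without *Ppox* and the permutation within mice were added after the data were seen.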

Additional observations from a re-analysis of the deposited data

Results flagged for a closer look

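In the proliferative zone, the library of mouse 1 stood apart from the other 3 for 4 of the 7 genes. It had 231 CPM of *Hbb-bt*, 447 CPM of *Hba-a2*, 75.7 CPM of *Alas2* and 38.8 CPM of *Slc4a1*, and the gap to the next library took 0.881, 0.87, 0.932 and 1 of the whole range of the 4 values, more than Dixon's test at 95% allows. The 7 genes in both zones made 14 groups, and chance alone marks about 1 in 20 groups. As the 7 genes share libraries, these are not independent.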

How the results depend on the processing

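Every log2 fold change of the 7 genes was positive in the main fit and in the alternatives that gave a value. Of 125 values under the alternatives, 89 kept their side of the threshold, 20 lost it and 16 gained it. With the mouse as replicate block, calls were gained by *Hbb-bs* (5.32), *Hbb-bt* (4.81), *Hba-a2* (5.31) and *Apex2* (5.31). With no filter these were 3.41, 3.25, 3.55 and 3.51, and in mice 6 and 13 alone 12.16, 9.88, 10.78 and 8.90. DESeq2 lost *Hba-a1* (3.94), *Alas2* (3.96) and *Slc4a1* (4.63), mice 1 and 2 alone lost *Alas2* (3.38) and *Slc4a1* (4.11), and sums of overlapping or near-identical genes lost *Alas2* (3.84) and *Hba-a1* (3.89). The cause was not tested. With each library left out in turn, log2 fold changes ranged from 3.16 to 5.47 for *Hbb-bs*, 2.99 to 6.08 for *Hbb-bt*, 3.32 to 4.86 for *Hba-a1*, 3.31 to 6.31 for *Hba-a2*, 3.30 to 7.00 for *Alas2*, 3.28 to 5.62 for *Apex2* and 3.93 to 9.56 for *Slc4a1*. At 10 counts in every library no member was left to test. The number of all genes called higher in the resting zone, 419, was 829 with no filter, 125 at 10 counts in every library, 29 in mice 1 and 2 and 213 in mice 6 and 13, and 255 to 472 with a library left out. Called higher in the proliferative zone were 263, and 468, 137, 62 and 63 in the same settings. Over all genes with a count, 829 were called, 492 in mice 1 and 2, 348 in mice 6 and 13, and 551 to 826 with a library left out. All 63 alternative CPM differences stayed within 1 SD of the resting libraries. With a library left out this could not come out otherwise, because 1 library moves the mean of its zone by less than that SD. It therefore says nothing on stability. In the proliferative libraries of mice 6 and 13, counts of 0 allow up to 4.81 and 12.4 CPM. That of mouse 6 was the deepest of all libraries, with 631474 counts.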
